A study of Homo sapiens with 12 samples.

Results

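UCN2 and TAC1 encode precursors of secreted signalling peptides, and in A375 melanoma cells their messages differed along different arms of the same experiment. UCN2 was more than 4-fold higher with the drug JQ1 in both genotypes and lower in knockout than in wild-type cells, whereas TAC1 was higher mainly in cells without MAPKAPK2. They are 2 of the 56609 gene symbols in the deposited count table. Both were picked from measured values in these libraries: UCN2 because its rise with JQ1 in knockout cells was among the largest, and TAC1 because its rise with knockout in DMSO was among the largest. The values behind those choices are therefore given as descriptions without a test. Both genes were among the 21698 that passed the low-count filter.

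A375 is an established line of human malignant melanoma cells from skin. The study made A375 cells without MAPKAPK2 by CRISPR/Cas9, and MAPKAPK2 (also called MK2) is a stress-activated protein kinase that acts below p38 MAP kinase. The 12 RNA sequencing libraries form 4 groups of 3 replicates: wild-type cells with DMSO, the solvent control, wild-type cells with JQ1 at 500 nM, knockout cells with DMSO, and knockout cells with JQ1 at 500 nM. Each treatment lasted 48 h. JQ1 is an inhibitor of BET bromodomain proteins, which bind acetylated histones and help to drive transcription. Titles of the control samples say untreated where their treatment field says DMSO, and the field was followed here. Whether the knockout cells were 1 clone or a pool, and whether replicates were separate cultures, is not given in the sources used here, so the p-values measure only the spread between these samples, which may be technical. The design compares JQ1 with DMSO in each genotype, knockout with wild-type cells under each treatment, and the drug response between the genotypes. Loss of MAPKAPK2 and other differences between the knockout and wild-type cells cannot be told apart.

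Urocortin 2, the UCN2 product, belongs to the corticotropin-releasing hormone family and signals through the receptor CRHR2. TAC1 encodes a precursor that yields substance P and neurokinin A, the tachykinins, which act on the receptors TACR1 and TACR2. Such precursors enter the secretory pathway, where prohormone convertases such as PCSK1 cut them at pairs of basic residues, carboxypeptidases such as CPE trim the ends, and PAM forms the amide that active substance P carries. After release, peptidases such as MME break the peptides down. In skin, substance P is known as a peptide of sensory nerve endings, and urocortins are known as products of skin cells.

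In the GENCODE 29 annotation of GRCh38, UCN2 lies on chromosome 3 from 48561727 to 48563773 on the minus strand, with 1 transcript of 2 exons. TAC1 lies on chromosome 7 from 97731908 to 97740472 on the plus strand, with 5 transcripts of 2 to 7 exons. The sequences just before the starts of both genes are shown because BET proteins act at chromatin near promoters and because both messages changed in level; no binding was measured here. They come from the RefSeq promoter table for GRCh38.p14, in which both genes were found, and capitals mark motif letters that were found by search. The 72 bases of TAC1 end where the earliest GENCODE transcript begins, 178 bases before the RefSeq start. A 30-base window around a further motif, which lies between these 2 starts, is given by itself. The UCN2 window is chr3:48563782-48564031, the first TAC1 window is chr7:97731836-97731907, and the second is chr7:97732013-97732042.
UCN2 upstream: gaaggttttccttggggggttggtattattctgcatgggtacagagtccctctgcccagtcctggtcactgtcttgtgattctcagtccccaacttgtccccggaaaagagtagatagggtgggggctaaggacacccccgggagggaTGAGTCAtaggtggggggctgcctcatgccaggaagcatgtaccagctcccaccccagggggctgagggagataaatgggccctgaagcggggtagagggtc
TAC1 upstream: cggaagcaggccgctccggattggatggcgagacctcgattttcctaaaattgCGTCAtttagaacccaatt
TAC1 site 1: tggggagaatgtCACGTGggtctggaggct

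Each motif was searched on both strands in the 250 bases before the RefSeq start. UCN2 held 1 match to the AP-1 motif, TGANTCA, whose first base lies 102 bases before the start, and 6.57% of 35116 promoter windows of the same length held one. TAC1 held 1 match to the short cAMP response motif, TGACG, read on the other strand 197 bases before the start, which 21.2% of windows held. TAC1 also held 1 E-box, CACGTG, 61 bases before the RefSeq start and inside the GENCODE gene, against 6.34% of windows. The full cAMP response element, TGACGTCA, which contains the short motif, and the TATA box, TATAAA, were found in neither window and in 1.65% and 10.7% of all windows. A match is a run of letters and does not show that a factor binds there.

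Library totals ran from 25316899 to 34594295 estimated counts, and MAPKAPK2 itself was lower in the knockout libraries, at 12.4 ± 1.15 and 14.4 ± 1.61 counts per 1000000 (CPM; SD, n = 3) in DMSO and JQ1 against 89.6 ± 2.20 and 117 ± 4.31 in wild type (edgeR adjusted p = 3.60e-11 and 1.54e-11). JQ1 replicate 3 of the knockout cells stood apart: its counts differed from the other 2 replicates with a chi-square per degree of freedom of 27.9 and 29.5, against 3.50 to 8.04 for every other pair within a group. Some results on that group are given with and without it. Of 11 genes taken as melanoma and melanocyte markers, 6 reached a mean of 1 CPM over the 12 libraries, SOX10 and MITF among them, while the pigment genes PMEL, MLANA, TYR, DCT and TYRP1 did not; PMEL averaged 1.09 and 1.18 CPM in the JQ1 groups of wild type and knockout. None of 4 immune and none of 3 endothelial markers reached that level, and 2 of 4 keratinocyte and 2 of 5 fibroblast markers did, with KRT1 at 0 in every library. The endothelial marker PECAM1 and the fibroblast marker COL1A1 were above it in wild-type DMSO, at 1.05 and 1.06 CPM, but not over all libraries. Of 9 neuroendocrine and neuronal markers, SYP, ENO2 and NCAM1 reached it, and INSM1 was at 0.

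UCN2 was measured at 21.5, 22.8 and 23.3 CPM in the 3 wild-type DMSO libraries and at 107, 109 and 92.4 CPM in wild-type JQ1, from 645 to 846 and from 2924 to 3405 counts. Every JQ1 library of the wild type lay far above every DMSO library. The mean went from 22.5 ± 0.939 to 103 ± 8.87 CPM (SD, n = 3), a fold of 4.56 ± 0.394 over the DMSO mean. This rise, a log2 fold change of 2.19 (SE 0.13), rests on libraries that did not enter the choice of UCN2 and passed the test with an edgeR adjusted p of 2.03e-08. JQ1 changed 33.1% of all tested genes in wild type at the same threshold, an adjusted p of 0.05 (16.9% higher, 16.2% lower), and 0.189% of them had a larger log2 fold change than UCN2.

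In knockout cells UCN2 was at 13.0, 14.6 and 16.7 CPM with DMSO (406 to 475 counts) and at 62.0, 64.6 and 91.3 CPM with JQ1 (1593 to 2884 counts). The groups did not overlap, and the value of 91.3 CPM belongs to the library that stood apart. The mean went from 14.8 ± 1.84 to 72.6 ± 16.2 CPM, a fold of 4.92 ± 1.10 (SD, n = 3) and a log2 fold change of 2.30 (SE 0.14). Without that library the log2 fold change was 2.11 (SE 0.09). This is the contrast that chose UCN2, so its size is a description; 34.4% of all tested genes passed the threshold in it (16.7% higher, 17.8% lower).

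UCN2 was lower in knockout than in wild-type cells under both treatments, and the libraries did not overlap in either. The knockout level was 0.655 ± 0.0816 of the wild-type mean in DMSO, a log2 fold change of -0.61 (SE 0.14), and 0.708 ± 0.158 of it in JQ1, a log2 fold change of -0.50 (SE 0.12). In JQ1 the highest knockout library, at 91.3 CPM, came just under the lowest wild-type library, at 92.4 CPM; without the knockout library that stood apart the log2 fold change was -0.70 (SE 0.08). These comparisons share the knockout libraries of the choosing contrast and are given without a test. The JQ1 response differed between the genotypes by 0.12 on the log2 scale (SE 0.19), less than its error, and by -0.08 (SE 0.12) without knockout JQ1 replicate 3. The order of the UCN2 levels was thus wild-type JQ1, knockout JQ1, wild-type DMSO and knockout DMSO, with the JQ1 groups nearly touching.

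The authors' normalized signal gave the same order for UCN2. In wild-type cells it ran from 639 to 694 with DMSO and from 2777 to 3261 with JQ1, and in knockout cells from 392 to 505 and from 1874 to 2728. The summed level of the 9 neuroendocrine and neuronal markers moved with UCN2, from 51.4 to 54.9 CPM over the wild-type DMSO libraries to 101 to 105 in wild-type JQ1, and from 36.9 to 39.4 in knockout DMSO to 90.9 to 104 in knockout JQ1. Most of that sum was ENO2, which also encodes a glycolytic enzyme and went from 47.3 ± 1.89 to 92.9 ± 2.44 CPM in wild type. The part of these cells or genes in the UCN2 result was not tested. In bulk RNA, fewer cells of a type and less RNA per cell cannot be told apart.

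TAC1 followed the genotype. It was measured at 1.40, 1.98 and 2.17 CPM in wild-type DMSO, from 47, 56 and 79 counts, and at 9.94, 8.89 and 9.16 CPM in knockout DMSO, from 310, 259 and 261 counts. The groups were far apart, with means of 1.85 ± 0.402 and 9.33 ± 0.543 CPM (SD, n = 3), a fold of 5.04 ± 0.293 and a log2 fold change of 2.33 (SE 0.15). This is the contrast that chose TAC1 and has no test here; 7.92% of all tested genes passed the threshold in it (3.47% higher, 4.44% lower).

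Under JQ1 the difference between the genotypes was measured in libraries that did not enter the choice. TAC1 was at 3.05, 3.60 and 3.43 CPM in wild-type JQ1, from 97 to 116 counts, and at 11.5, 10.2 and 9.47 CPM in knockout JQ1, from 251 to 302 counts. All knockout libraries lay above all wild-type libraries, with means of 10.4 ± 1.03 and 3.36 ± 0.284 CPM (SD, n = 3), a fold of 3.09 ± 0.307. The rise passed the test, with a log2 fold change of 1.63 (SE 0.14) and an edgeR adjusted p of 3.14e-06, in a contrast in which 8.57% of all tested genes passed (3.01% higher, 5.56% lower) and 0.373% had a larger log2 fold change. It was 1.69 (SE 0.15) without knockout JQ1 replicate 3.

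JQ1 went with a higher TAC1 level in wild-type cells, with a fold of 1.81 ± 0.153 (SD, n = 3), a log2 fold change of 0.86 (SE 0.16) and no overlap between the libraries. In knockout cells the fold was 1.11 ± 0.111 and the log2 fold change 0.15 (SE 0.13), and the libraries overlapped. The difference of the 2 responses was -0.70 on the log2 scale (SE 0.20). All 3 values share libraries with the contrast that chose TAC1 and carry no test. The order of the TAC1 levels was knockout JQ1, knockout DMSO, wild-type JQ1 and wild-type DMSO, of which the first pair did not differ beyond its spread.

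**Figure D1:**
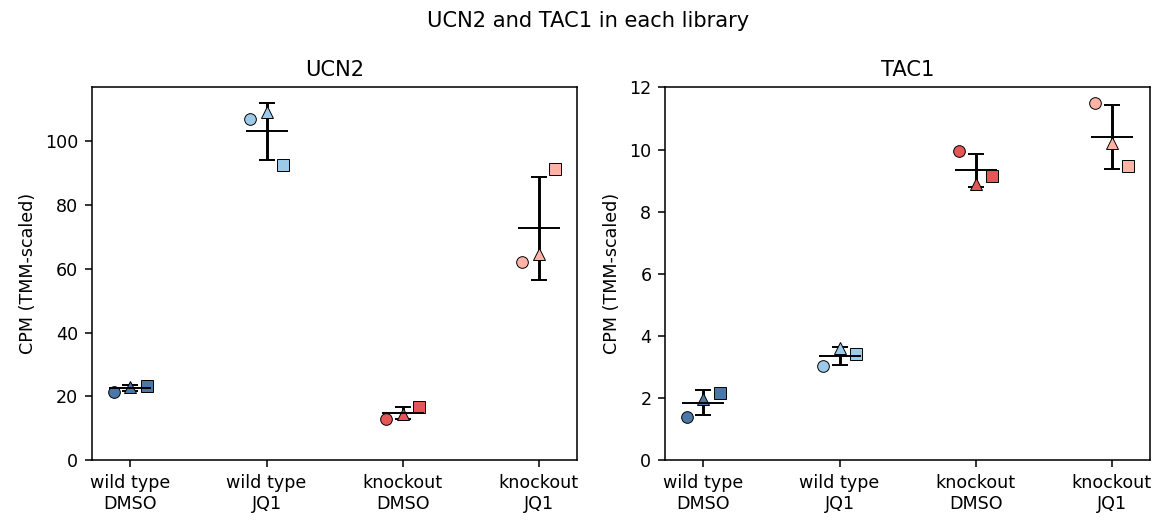
UCN2 and TAC1 in each of the 12 libraries, in CPM on a linear axis from 0, with replicates 1 to 3 as circle, triangle and square and the mean with its SD (n = 3) as bars. UCN2 is high in both JQ1 groups, with knockout JQ1 replicate 3 at 91.3 CPM close under the wild-type JQ1 libraries, and TAC1 is high in both knockout groups, between 8.89 and 11.5 CPM.

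The genes next in size show where each member stood among genes called higher. These genes averaged 5 CPM or more in either group of the contrast, and their libraries did not overlap between the groups. The ranks are a description, since the same contrasts chose UCN2 and TAC1. By log2 fold change for JQ1 in knockout cells, UCN2 was rank 3 of 2967, below ANGPTL4, a secreted inhibitor of lipoprotein lipase, at 3.78 (SE 0.18), and above EFR3B, a plasma membrane protein, at 2.15 (SE 0.10). For knockout in DMSO, TAC1 was rank 3 of 655, below TRIM51, a tripartite motif gene, at 2.45 (SE 0.15), and above the non-coding RNA LINC01297 at 1.92 (SE 0.18). Over all tested genes without these limits, UCN2 was rank 42 in both JQ1 contrasts. TAC1 was rank 30 for knockout in DMSO, rank 82 for knockout in JQ1, rank 689 for JQ1 in wild type and rank 7644 for JQ1 in knockout.

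UCN2 has a close neighbour on each side on its own strand. In GENCODE 29, 289 of its 1481 exonic bases (19.5%), from 48561727 to 48562015 in its 3′ untranslated region, also belong to exons of PFKFB4, which makes a regulator of glycolysis, in 2 of the 15 PFKFB4 transcripts. Reads from those bases cannot be assigned to 1 of the 2 genes by their position or strand. COL7A1, the gene of the anchoring fibril collagen of skin, ends 299 bases before UCN2 begins. TAC1 overlaps no gene in that annotation.

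PFKFB4 had the same order of groups as UCN2. In wild-type cells it was at 54.1, 56.2 and 54.6 CPM with DMSO and at 167, 173 and 155 with JQ1, and in knockout cells at 36.3, 40.0 and 37.4 with DMSO and at 96.9, 107 and 141 with JQ1. It rose with JQ1 by 1.58 on the log2 scale in wild type (SE 0.11, edgeR adjusted p = 5.72e-08) and by 1.60 in knockout (SE 0.11, adjusted p = 4.39e-08). It was lower in knockout cells by -0.54 in DMSO (edgeR adjusted p = 0.00517) and -0.52 in JQ1 (adjusted p = 0.00508). Without 1 library, PFKFB4 ran from 1.43 to 1.72 for JQ1 in knockout and from -0.69 to -0.41 for knockout in JQ1. UCN2 thus had the larger log2 fold change for JQ1 in both genotypes, at 2.19 and 2.30, and values near those of PFKFB4 for genotype, at -0.61 and -0.50. How far shared reads set this likeness was not tested.

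COL7A1, on the other side of UCN2, rose with JQ1 by 0.77 in wild type (adjusted p = 0.00282) and by 1.00 in knockout (adjusted p = 5.75e-04). Its genotype differences of -0.59 in DMSO and -0.36 in JQ1 did not pass (adjusted p = 0.0651 and 0.239), and without knockout JQ1 replicate 3 they were -0.59 and -0.63 and passed (0.00742 and 0.00830). The difference in DMSO also passed by library totals, without a low-count filter, by DESeq2 and with only the groups compared (0.0126 to 0.0471). Farther out, UQCRC1 and SLC26A6 rose with JQ1 by 0.33 to 0.55 in both genotypes, SHISA5 fell in knockout by 0.43 (adjusted p = 0.00116), and TREX1 passed in none of the 4 contrasts. SHISA5 was at -0.27 in wild type (adjusted p = 0.0233), a call lost without any 1 of 5 wild-type libraries, all but DMSO replicate 2, at adjusted p from 0.0567 to 0.0727. Besides UCN2, 5 of the 6 tested genes nearest to it therefore passed for JQ1 in wild type, against 33.1% of all genes. PFKFB4, which shares exonic bases with UCN2, COL7A1, UQCRC1 and SLC26A6 were higher, and SHISA5 was lower.

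Around TAC1, 1 of the 6 nearest tested genes passed in a genotype contrast, where 7.92% of all tested genes passed in DMSO and 8.57% in JQ1. DLX6, a homeobox gene 2 tested genes away, was at 1.04 ± 0.210 CPM in wild-type DMSO and 1.87 ± 0.0693 in knockout DMSO, with a log2 fold change of 0.85 (adjusted p = 0.0226) that fell short without knockout DMSO replicate 2 or 3 or wild-type DMSO replicate 1 or 3 (adjusted p from 0.0596 to 0.106). DLX6-AS1, SDHAF3, ASNS, OR7E38P and LMTK2 passed in neither genotype contrast. ASNS, which makes asparagine, rose with JQ1 by 0.60 in wild type (adjusted p = 4.96e-06) and 0.75 in knockout (adjusted p = 5.19e-07), and OR7E38P rose by 0.50 in knockout (adjusted p = 0.00416).

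**Figure D2:**
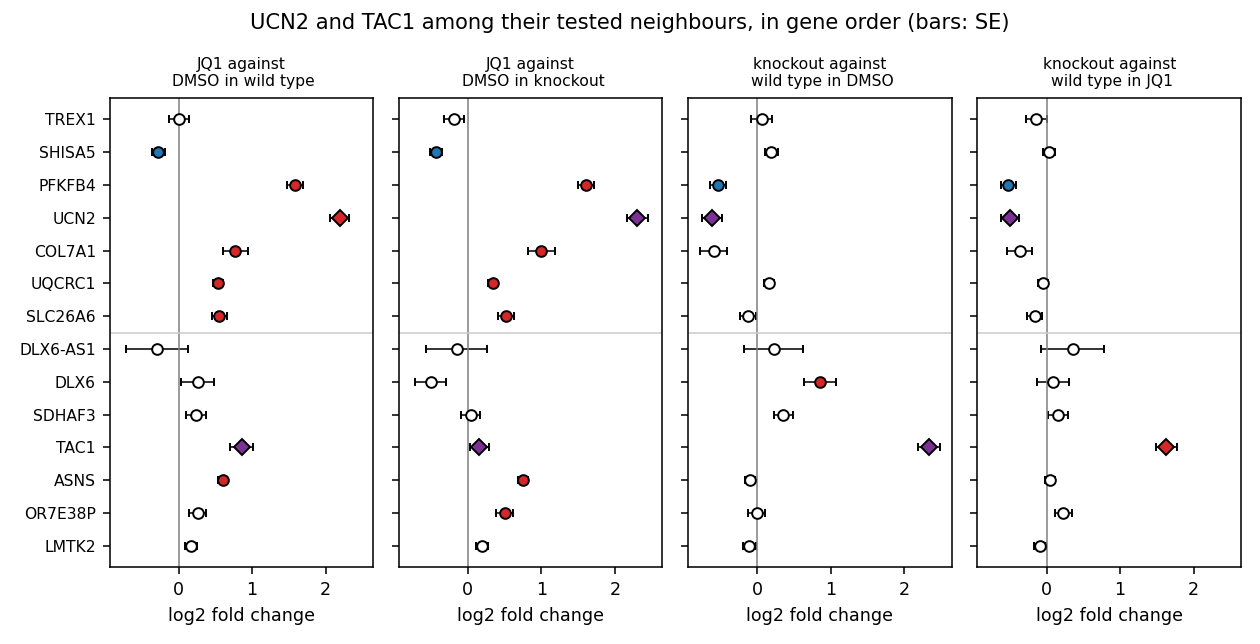
Log2 fold changes (edgeR, bars: SE) of UCN2, TAC1 and the 3 nearest tested genes on each side in gene order, in 4 contrasts; red and blue points passed an adjusted p of 0.05 as higher or lower, open points did not, diamonds are UCN2 and TAC1, and purple diamonds carry no test. PFKFB4 goes in the same direction as UCN2 in every panel, with smaller values for JQ1 and near ones for genotype. No neighbour of TAC1 comes near its 2.33 for knockout in DMSO.

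The rest of both ligand and receptor families was little expressed. CRH and UCN3 had at most 1 count in a library, and CRHR1 had none in any, where the limit of 3 counts is 0.0867 CPM in the deepest and 0.118 CPM in the shallowest library. CRHBP and TACR3 had at most 5 counts, TAC3 at most 1 and TAC4 from 1 to 8. UCN, the gene of urocortin 1, ran from 1.10 ± 0.0639 to 1.29 ± 0.364 CPM over the groups and passed in no contrast. CRHR2, the receptor of urocortin 2, ran from 0.203 ± 0.0382 to 0.389 ± 0.190 CPM, 4 to 18 counts a library, and did not pass either.

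TACR1, the main receptor of substance P, went from 0.732 ± 0.110 CPM with DMSO to 1.13 ± 0.211 with JQ1 in wild-type cells and from 0.396 ± 0.0805 to 0.994 ± 0.0294 in knockout cells. It rose with JQ1 in knockout cells by 1.32 on the log2 scale (SE 0.26, edgeR adjusted p = 0.00109). In wild type the value was 0.63 (adjusted p = 0.0472), and 15 of 19 alternative settings put it past 0.05, with adjusted p up to 0.172 without wild-type JQ1 replicate 3. The knockout difference in DMSO, -0.88, had an adjusted p of 0.0595 by edgeR and 0.0367 by limma. TACR2, the neurokinin A receptor, ran from 0.883 ± 0.267 to 1.21 ± 0.307 CPM and passed in no contrast.

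Genes that make, store and break down such peptides were followed in a list of 43, both families included. With UCN2 and TAC1 counted only where they carry a test, 15 of 30 tested genes passed for JQ1 in wild type (11 higher, 4 lower, 50%; all genes 33.1%), with a median log2 fold change of 0.06 against -0.03 for all genes. For JQ1 in knockout 17 of 29 passed (14 higher, 3 lower, 58.6%; all genes 34.4%), with a median of 0.23 against 0.00. Scaled by library totals alone, the median of all genes moved to -0.16 and -0.12, the calls over all genes went from 3665 higher and 3522 lower to 2298 and 5368 in wild type and from 3616 and 3856 to 2409 and 5250 in knockout, and the list gave 8 higher and 4 lower in wild type and 8 and 3 in knockout. For knockout in DMSO 4 of 29 passed (13.8%; all genes 7.92%), and for knockout in JQ1 7 of 30 (23.3%; all genes 8.57%), or 4 without wild-type JQ1 replicate 2. In none of 29 did the JQ1 response differ between genotypes by edgeR, where 2 had an unadjusted p under 0.05, while DESeq2 called 1 and limma none; 0.134% of all genes passed.

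PCSK1, a convertase of regulated secretion, was lower in all 4 contrasts. Its mean was 23.0 ± 0.635 CPM with DMSO and 4.79 ± 0.723 with JQ1 in wild-type cells, and 6.29 ± 0.365 and 1.46 ± 0.453 in knockout cells. With JQ1 the log2 fold change was -2.27 in wild type (SE 0.14, edgeR adjusted p = 2.91e-08) and -2.12 in knockout (SE 0.17, adjusted p = 3.58e-07). Between knockout and wild-type cells it was -1.87 in DMSO (SE 0.14, adjusted p = 7.69e-07) and -1.72 in JQ1 (SE 0.18, adjusted p = 1.87e-05). The convertase was thus at its lowest in knockout cells with JQ1, the group with the highest TAC1 mean, and it fell with JQ1 while UCN2 rose. PCSK2, another convertase of dense-core granules, had 1 to 8 counts a library.

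Other processing enzymes moved less. CPE, which trims the cut ends, was lower in knockout by -0.62 in DMSO (adjusted p = 2.40e-04); in JQ1 it was at -0.35 (adjusted p = 0.0153), lost without knockout JQ1 replicate 2 or wild-type JQ1 replicate 1 or 2 (0.0517 to 0.0583). With JQ1, QPCT, which forms N-terminal pyroglutamate, fell by 0.63 and 0.59 in wild type and knockout (adjusted p = 0.00198 and 0.00308). CPD, a carboxypeptidase of the trans-Golgi network, rose by 0.33 in wild type (adjusted p = 0.00107) and was at 0.23 in knockout (0.0110, or 0.0677 without knockout DMSO replicate 2). CPZ, a secreted carboxypeptidase, fell by 1.53 in wild type (adjusted p = 0.00244) and was at -1.36 in knockout (0.0128, or 0.0554 without knockout JQ1 replicate 3). PCSK5, another convertase, moved oppositely in the 2 genotypes. JQ1 gave 0.35 in knockout (edgeR adjusted p = 0.00951, or 0.0829 by library totals). In wild type JQ1 gave -0.34 (0.0113, lost without wild-type DMSO replicate 1 or 3 or wild-type JQ1 replicate 1 at 0.0561 to 0.0747). The difference of 0.69 had an adjusted p of 0.0687 by edgeR, 0.00736 without knockout JQ1 replicate 3 and 0.00124 by DESeq2. Under JQ1 PCSK5 was higher in knockout by 0.57 (adjusted p = 0.00125), as TAC1 was.

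Granule and breakdown genes named by the rule, which took only genes called in some contrast, rose with JQ1 in both genotypes. Others on the list passed in neither JQ1 contrast. Among them, SCG2 was at 10.6 CPM with DMSO and 10.6 with JQ1 in wild type, and at 8.94 and 8.09 in knockout. CHGA, little expressed, went from 0.319 to 0.176 CPM in wild type and from 0.361 to 0.165 in knockout. The peptidase NLN went from 19.5 to 20.7 CPM and from 21.3 to 19.7. VGF, itself a precursor of secreted peptides, was at 285 ± 15.1, 822 ± 107, 485 ± 83.8 and 1320 ± 461 CPM in wild-type DMSO, wild-type JQ1, knockout DMSO and knockout JQ1. It rose with JQ1 by 1.53 (edgeR adjusted p = 2.05e-05) and 1.45 (adjusted p = 2.72e-05). Without 1 library, the rise of VGF in knockout ran from 1.13 to 1.62. Its difference between genotypes was 0.77 in DMSO (adjusted p = 0.0177) and 0.69 in JQ1 (0.0310), and each call was lost without single libraries: knockout DMSO replicate 2 or 3 or wild-type DMSO replicate 1 for the first (0.0545 to 0.0706), and knockout JQ1 replicate 3 or any wild-type JQ1 replicate for the second (0.0588 to 0.133), with 0.37 without knockout JQ1 replicate 3. CHGB, a granin, rose by 1.55 and 1.68 (adjusted p = 1.09e-04 and 1.14e-04), from 0.746 ± 0.116 to 2.20 ± 0.141 CPM in wild type. Among peptidases, ECE1 rose by 0.81 and 0.85 (adjusted p = 1.65e-05 and 9.35e-06), THOP1 by 0.47 and 0.49 (0.00268 and 0.00208), and IDE by 0.38 and 0.40 (0.00372 and 0.00266, with 0.0505 in wild type when scaled by library totals).

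MME, which degrades substance P, was chosen for mention after its values were seen, since its mean was under 1 CPM in every group. It was at 0.990 ± 0.0543 CPM in wild-type DMSO and 0.258 ± 0.0839 in knockout DMSO, and at 0.817 ± 0.0878 and 0.172 ± 0.0517 in JQ1. It was lower in knockout by -1.92 in DMSO (edgeR adjusted p = 7.17e-04; limma 0.134) and by -2.24 in JQ1 (adjusted p = 4.53e-04), the same contrasts in which TAC1 was higher. FURIN and PCSK7, convertases of the trans-Golgi network, PCSK1N, the PCSK1 inhibitor, the amidating enzyme PAM and the peptidase PREP made up the rest of the called genes with TACR1. They fell outside the rule for naming and were named after their values were seen. Without some single library of the groups compared, the JQ1 calls of FURIN in wild type and PCSK7 in both genotypes were lost. So were those of PAM for JQ1 in knockout and PREP for knockout in JQ1 (edgeR adjusted p up to 0.1105, for PAM without knockout JQ1 replicate 1). The JQ1 calls of FURIN and PREP in knockout held without any 1 library. That of PREP was lost by library totals (edgeR adjusted p = 0.07845).

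**Figure D3:**
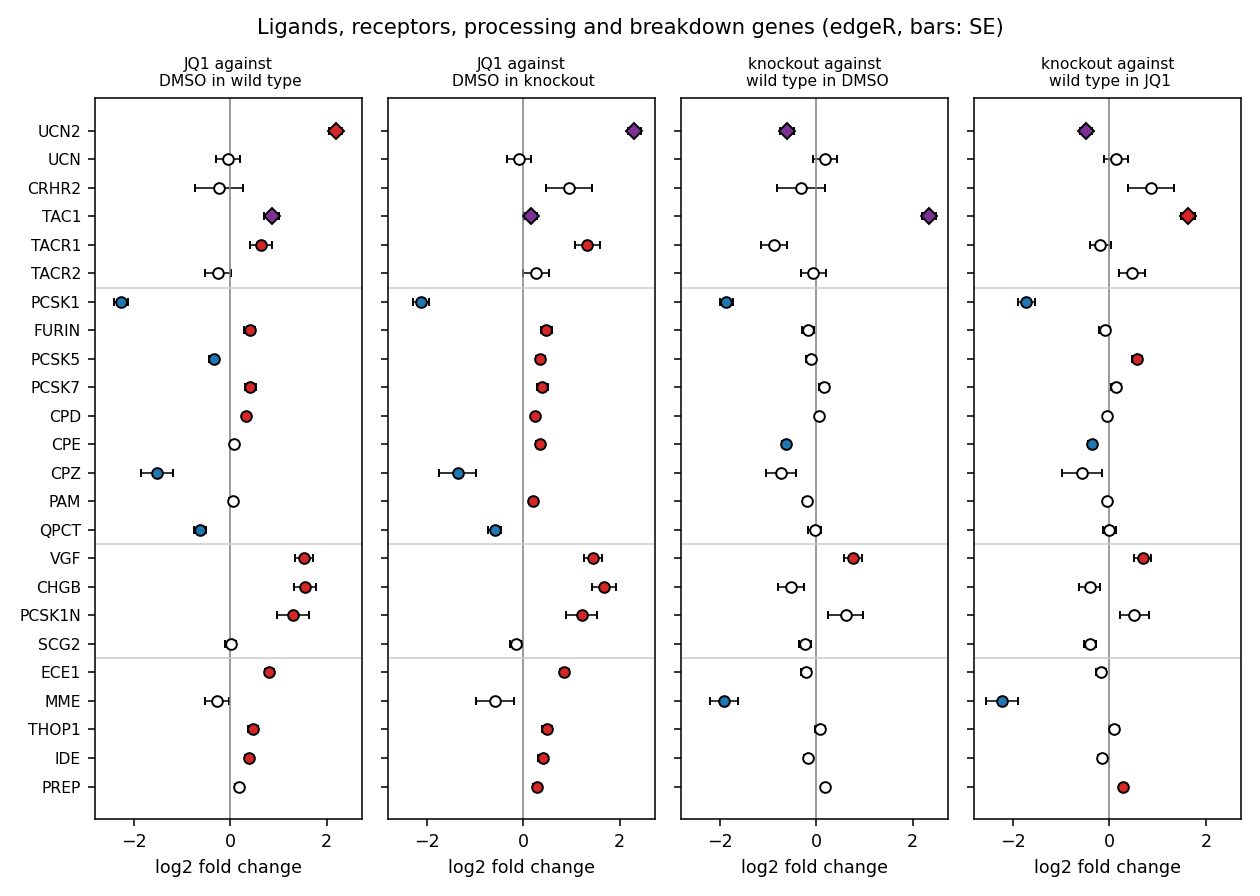
Log2 fold changes (edgeR, bars: SE) of ligands, receptors, processing enzymes, granule proteins and peptidases in 4 contrasts, in blocks from top to bottom; red and blue points passed an adjusted p of 0.05 as higher or lower, open points did not, diamonds are UCN2 and TAC1, and purple diamonds carry no test. PCSK1 lies between -1.72 and -2.27 in every panel, on the other side of 0 from UCN2 under JQ1 and from TAC1 in knockout.

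Other peptide precursors showed no common direction with UCN2 or TAC1. Of 59 such genes 16 were expressed enough to be tested, and 6 passed for JQ1 in wild type (2 higher, 4 lower, 37.5%; all genes 33.1%) and 7 in knockout (2 higher, 5 lower, 43.8%; all genes 34.4%). ADM, the gene of the vasodilator adrenomedullin, rose from 3.92 ± 0.884 to 10.4 ± 0.748 CPM in wild type and from 4.26 ± 0.633 to 10.6 ± 0.265 in knockout (log2 1.41 and 1.31, adjusted p = 4.93e-06 and 8.40e-06). PTHLH, the gene of parathyroid hormone-related peptide, rose by 1.83 and 1.86 (adjusted p = 8.96e-05 and 1.21e-04). NPPC, the C-type natriuretic peptide gene, fell by 1.24 and 1.19 (adjusted p = 1.55e-04 and 3.34e-04), and NMB, the neuromedin B gene, fell by 0.67 in knockout (adjusted p = 1.33e-04).

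The genotype contrasts gave 2 calls in DMSO (12.5%; all genes 7.92%) and 1 in JQ1 (6.25%; all genes 8.57%), all lower and so opposite to TAC1. NMU, the neuromedin U gene, was at 4.25 ± 0.348, 2.51 ± 0.334, 2.24 ± 0.0770 and 1.29 ± 0.1 CPM in wild-type DMSO, wild-type JQ1, knockout DMSO and knockout JQ1. It fell with knockout by 0.92 in DMSO and 0.96 in JQ1 (adjusted p = 6.99e-04 and 0.00120), and with JQ1 by 0.76 and 0.80 (adjusted p = 6.28e-04 and 0.00121). ADM2, the other call in DMSO, was at -1.31 (adjusted p = 0.0276), lost without knockout DMSO replicate 1 or 2 or wild-type DMSO replicate 2 or 3 (0.0628 to 0.115). None of the 16 differed between genotypes in its JQ1 response by edgeR, DESeq2 or limma, and 2 had an unadjusted p under 0.05 by edgeR. Of 15 genes that read cAMP, E-box or steroid signals or silence neuronal genes, 7 passed for JQ1 in wild type (46.7%; all genes 33.1%) and 6 in knockout (40%; all genes 34.4%). CREM, a cAMP response factor, fell by 0.46 in both (adjusted p = 1.71e-04 and 1.65e-04). The split of the calls depended on scaling, with 5 higher and 2 lower calls in wild type but 1 and 3 by library totals. Without 1 library the counts went as low as 4 (wild-type JQ1 replicate 1) and 3 (knockout DMSO replicate 1). None of the 15 passed for knockout in DMSO (2 with an unadjusted p under 0.05; DESeq2 and limma none; 2 without knockout JQ1 replicate 3) and 1 passed in JQ1 (6.67%; all genes 8.57%; 3 without that library, none without each of 7 others).

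Over the 12 libraries, 4 of the 5 genes whose log2 CPM followed UCN2 most closely, among those averaging 1 CPM or more in some group, were TRAM2, AXL, TAGLN2 and PMEPA1, with Pearson's r from 0.996 to 0.998 among 16346 genes. They are given as a description, since the libraries share the same treatments. TRAM2 takes part in collagen synthesis, AXL is a receptor tyrosine kinase, TAGLN2 binds actin and PMEPA1 is a feedback gene of TGF-beta signalling. Their log2 fold changes for JQ1 were 0.54, 0.92, 0.65 and 1.54 in wild type and 0.58, 1.01, 0.62 and 1.53 in knockout, each less than the 2.19 and 2.30 of UCN2. They lie on chromosomes 6, 19, 1 and 20 in that order, none near UCN2. PFKFB4, the overlapping neighbour, was rank 10 by this measure, with r = 0.994.

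The 5 genes most like TAC1 were UBBP4, a ubiquitin pseudogene, REXO2, an oligoribonuclease, CDH2, the gene of N-cadherin, C17orf49 and PLD2, a phospholipase D, with r from 0.969 to 0.981. Of these, 3 (UBBP4, C17orf49 and PLD2) lie on chromosome 17, and none lies on chromosome 7 with TAC1. They were higher in knockout by 0.70, 0.37, 0.42, 0.62 and 0.59 in DMSO and by 0.41, 0.32, 0.31, 0.38 and 0.39 in JQ1, a description with no test, since likeness to TAC1 over the same libraries chose them. These values are well under the 2.33 and 1.63 of TAC1, so the likeness is of pattern and not of size. The same 5 genes were found for each member with a smaller prior count of 0.5 in place of 2.

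**Figure D4:**
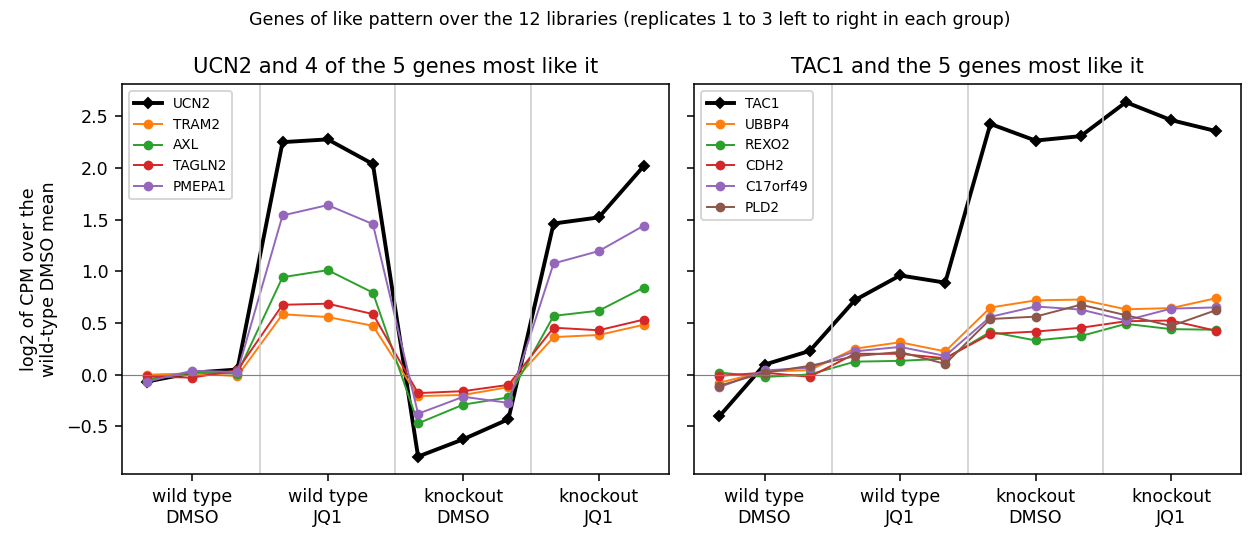
Log2 of CPM over the wild-type DMSO mean for UCN2 (left) and TAC1 (right, both in black) with 4 of the 5 genes most like UCN2 and the 5 most like TAC1, over the 12 libraries in 4 groups; lines only join the points of a gene, since replicates have no order. The companions of UCN2 are high in both JQ1 groups and those of TAC1 in both knockout groups, each over a smaller range than UCN2 and TAC1.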

How the data were processed

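The authors deposited estimated counts per gene symbol, which need not be whole, and a table of normalized signal for 32828 genes, whose values equal the count divided by a factor specific to gene and library. The submitters' processing notes name kallisto, Trim Galore, cutadapt, FastQC, MultiQC, DESeq2 and GRCh38.p10 with no role; the annotation and the use of strand in counting are not given in the sources used here. Counts were rounded. The libraries were directional and depleted of ribosomal RNA, per the labels' protocols. Groups came from the genotype and treatment labels.

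edgeR 4.0.16 (R 4.3.3) quasi-likelihood tests with TMM scaling were fitted over all 12 libraries after filterByExpr, with Benjamini-Hochberg adjustment over 21698 genes and a threshold of 0.05; the SE is the log2 fold change over the root of F. CPM are TMM-scaled. Fitting was tested on simulated counts. UCN2 and TAC1 carry a p only in the contrast that shares no library with the one that chose them. The genes and lists were chosen with earlier results of these data known. From each list, called genes averaging 1 CPM or more in a group, at most 12, were named by smallest adjusted p, beside both families, 3 tested genes on each side, the next genes in rank and the 5 genes most alike by r of log2 CPM (prior count 2), of which 1 is not reported here. Alternatives were DESeq2 1.42.0, limma 3.58.1 on log2 of the deposited signal plus 1, other scalings and filters, only the groups compared, a replicate block, and each library left out.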

Additional observations from a re-analysis of the deposited data

Results flagged for a closer look

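LINC01297, the non-coding RNA just below TAC1 in the order of rises with knockout in DMSO, was the 1 gene named here whose JQ1 response differed between the genotypes by edgeR over all 12 libraries; PCSK5 did by DESeq2 (adjusted p = 0.00124), without a low-count filter (5.72e-05) and without knockout JQ1 replicate 3 (0.00736). It went from 34.5 ± 3.77 to 32.1 ± 4.87 CPM with JQ1 in wild type and from 130 ± 3.9 to 377 ± 116 in knockout (SD, n = 3), a difference of 1.64 on the log2 scale (SE 0.25, edgeR adjusted p = 0.0191). The adjusted p was 0.0579 to 0.0816 without replicate 2 or 3 of either DMSO group or replicate 1 or 2 of wild-type JQ1.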

How the results depend on the processing

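Of 2795 values recomputed under 20 alternatives, 2644 kept their direction, side of the threshold or size, and none reversed a call. UCN2 for JQ1 in wild type ran from 2.06 (library totals) to 2.26 with adjusted p up to 4.91e-07, and TAC1 for knockout in JQ1 from 1.55 to 1.69 with adjusted p up to 1.24e-04; without 1 library they ran from 2.15 to 2.26 and from 1.55 to 1.69. Untested values of UCN2 and TAC1 were judged by their sign and by the SD of log2 CPM within groups. By that measure 1 changed, the UCN2 difference of JQ1 responses, whose change of sign is given above. Without 1 library, others moved by more than their SE. UCN2 went to 2.11 for JQ1 in knockout and to -0.70 for knockout in JQ1, both given above. TAC1 went as low as 0.69 for JQ1 in wild type and ran from 2.17 to 2.48 for knockout in DMSO. Peptide genes called for JQ1 in knockout went from 17 to 11 by library totals. For knockout in JQ1 they went from 7 to 4 with only the groups compared, and without 1 library from 4 to 7. For the difference of JQ1 responses they went from 0 to 1 (PCSK5) without a low-count filter and by DESeq2, and without 1 library from 0 to 1. Other precursors called for knockout in DMSO went from 2 to 1 by limma and from 1 to 3 without 1 library, and in JQ1 from 1 to 2 by limma. The cause of these moves was not tested. Over all genes the difference of JQ1 responses was called for 29 by edgeR, 236 without a low-count filter, 154 by DESeq2 and 8 to 88 without 1 library; with only the groups compared, knockout gave 2619 calls in DMSO (1718) and 922 in JQ1 (1860). With replicate number as a block in edgeR, UCN2 for JQ1 in wild type was 2.20 (adjusted p = 1.57e-07) and TAC1 for knockout in JQ1 1.63 (3.81e-05). The peptide list then gave 14, 17, 4, 7 and 0 calls. The main fit did not treat the numbers as pairs. Of 18 same-numbered pairs, 2 had deviations correlated over 0.1 (-0.201 to 0.146), and 6 of 36 comparisons matched best by number. This check cannot exclude pairing, since deviations were taken within groups of 3 and knockout JQ1 replicate 3 stood apart. The low counts of TAC1 in wild-type DMSO (47 to 79) and of the receptors limit their precision, since counting error is largest there.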
